A study of Mus musculus with 21 samples.

Results

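The Krüppel-like factor genes described here are 9 members of the Klf family, namely Klf2, Klf3, Klf4, Klf6, Klf7, Klf9, Klf10, Klf11 and Klf13. They were chosen by gene symbol from the 37734 genes that the deposited values cover, which hold 17 Klf genes in all, and all 9 were among the 14970 genes that passed the filter for testing. The study sorted conventional dendritic cells (cDCs) from untreated C57BL/6 mice aged 6 to 8 weeks and sequenced their mRNA, to compare thymic with splenic cells and mature with immature ones. All 6 groups share this strain and age range, and no group carries an allele or received an agent. The immature groups are splenic cDC1 (5 libraries), splenic cDC2 (3), thymic cDC1 (4) and thymic cDC2 (3), sorted as CCR7- Esam-, and the mature groups are thymic cDC1 (3) and thymic cDC2 (3), sorted as CCR7+ Esam+. Each library came from cells of pooled animals after tissue digestion and magnetic enrichment for CD11c. Whether each library came from a separate pool is not stated in the sources used here. Mature cells were sorted from the thymus, so that the samples say nothing of mature splenic cDCs.

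The libraries held 14266867 to 40119669 reads in genes. Splenic cDC1 replicates 4 and 5 differed in their read counts far less than other pairs of that group (a chi-square ratio of 2.525 to its degrees of freedom, against 26.85 to 190.4) and were averaged, as replicate 4, which left 20 samples. In the immature cells the markers followed the labels. The summed normalized read count of 6 cDC1 markers, among them Xcr1, was 84504 to 96564 in cDC1 and 3009 to 5156 in cDC2, and that of 5 cDC2 markers, among them Sirpa, was 325 to 3412 against 39966 to 46198. In mature cDC2 the cDC1 list summed to 14300.3 to 22358, as much as the cDC2 list, at 13915 to 17547. Most of that cDC1 sum was Irf8, at 10958 to 17176, and Batf3, while Xcr1 was at 11.0 to 25.1. In mature cDC1 the sums were 40321 to 43806 and 2109 to 3605, with Itgam at 0 in every sample. The 6 maturation markers, which include Ccr7 and Esam, summed to 3379 to 33577 in the immature and to 359268 to 540140.0 in the mature groups. Mature libraries came from lane 8 alone, whereas each immature group was split between lanes 5 and 8. Below, a difference is called where its adjusted p (Benjamini-Hochberg over all genes tested, by limma) was under 0.1 and the change exceeded 2-fold, and log2 fold changes are those of the value plus 1.

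Krüppel-like factors bind GC-rich DNA such as GC and CACCC boxes through zinc fingers at the end of the protein, and they differ in the part before it. Klf2, Klf4, Klf6 and Klf7 mainly activate transcription, Klf3 recruits the CtBP corepressors, and Klf9, Klf10, Klf11 and Klf13 recruit the Sin3a corepressor complex. Several of them are early response genes, and Klf10 and Klf11 were first known as genes induced by transforming growth factor beta. In mononuclear phagocytes, Klf2 and Klf4 are known as regulators of activation, Klf4 also for its part in a branch of the cDC2 lineage, and Klf6 as a gene induced by inflammatory signals.

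The stretches before the starts of 6 of these genes are shown. Klf11 and Klf13, the members most correlated with each other over the samples, are both among them. The RefSeq sequences (GRCm38.p6) cover 250 bases before a gene start, matched 8 of the 9 genes by symbol (all but Klf10), and are printed 5′ to 3′ on the strand of the gene, up to the first base that an annotated exon covers. The letters searched, on both strands, were the GC box GGGCGG, the CACCC box CACCC, the E box CACGTG, the AP-1 site TGANTCA, the cAMP response element TGACGTCA and, by their names alone, the CArG box and the MEF2 site. Capitals mark the matches.
Klf2, chr8:72318812-72319032, plus strand: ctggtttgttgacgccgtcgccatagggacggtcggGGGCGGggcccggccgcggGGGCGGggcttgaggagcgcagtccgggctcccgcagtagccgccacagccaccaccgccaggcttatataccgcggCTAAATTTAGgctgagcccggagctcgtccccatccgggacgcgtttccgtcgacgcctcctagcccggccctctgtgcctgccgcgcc
Klf4, chr4:55532476-55532725, minus strand: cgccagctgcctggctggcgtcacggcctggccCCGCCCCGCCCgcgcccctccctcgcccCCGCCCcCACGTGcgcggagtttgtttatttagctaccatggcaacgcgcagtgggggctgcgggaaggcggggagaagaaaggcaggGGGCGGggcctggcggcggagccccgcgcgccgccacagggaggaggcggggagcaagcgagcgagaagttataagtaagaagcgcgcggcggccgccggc
Klf6, chr13:5861239-5861481, plus strand: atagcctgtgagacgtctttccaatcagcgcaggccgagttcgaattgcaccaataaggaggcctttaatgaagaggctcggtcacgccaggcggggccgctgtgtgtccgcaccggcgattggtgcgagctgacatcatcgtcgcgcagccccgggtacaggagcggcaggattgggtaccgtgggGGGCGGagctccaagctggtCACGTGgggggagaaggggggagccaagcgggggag
Klf9, chr19:23140976-23141225, plus strand: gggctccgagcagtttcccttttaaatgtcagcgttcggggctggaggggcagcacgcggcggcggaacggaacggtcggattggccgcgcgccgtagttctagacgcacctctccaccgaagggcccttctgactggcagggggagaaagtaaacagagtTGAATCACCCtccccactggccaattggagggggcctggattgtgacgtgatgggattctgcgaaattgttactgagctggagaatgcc
Klf11, chr12:24651121-24651273, plus strand: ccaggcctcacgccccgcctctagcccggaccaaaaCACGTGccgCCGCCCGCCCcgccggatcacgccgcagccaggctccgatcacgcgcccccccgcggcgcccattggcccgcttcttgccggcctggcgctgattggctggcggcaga
Klf13, chr7:63938916-63939165, minus strand: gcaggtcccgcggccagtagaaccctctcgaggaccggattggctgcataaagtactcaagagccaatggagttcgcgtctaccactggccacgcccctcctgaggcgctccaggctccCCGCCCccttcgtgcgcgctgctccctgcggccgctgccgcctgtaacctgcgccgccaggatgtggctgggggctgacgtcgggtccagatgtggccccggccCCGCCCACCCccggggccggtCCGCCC

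The window of Klf2 held the only MEF2 site among the 8, from position -118 to -109 against the start, together with 2 GC boxes. Such a site was present in 1.69% of the 32851 windows of that length. Klf4, Klf6 and Klf11 held an E box, which 6.02% of all windows did. Klf9 had no GC box and held an AP-1 site whose last 2 letters are shared with a CACCC box, and 6.75% of all windows held an AP-1 site. GC boxes, present in 32.7% of all windows, were found in the other 7 windows, including 3 in Klf13 and 4 in Klf11. CACCC boxes, present in 52% of all windows, were found in Klf2, Klf3, Klf7, Klf9 and Klf13. The letters of the cAMP response element (1.55% of all windows) and of the CArG box (1.47%) were in none of the 8. These matches describe the letters alone.

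In the deposited values, the normalized read count of a gene is its number of reads divided by the size factor of the library. Levels of different genes were set side by side per kb of exon, the length covered by all annotated exons of the gene. On that scale Klf6 was the most abundant member in 5 of the 6 groups, and Klf4 was in splenic cDC2, at 4938 per kb against 4805 for Klf6. When the length of the longest transcript was used, Klf6 came first in splenic cDC2 as well. Klf6 made up 34.2% of the summed level per kb of the 9 genes in splenic cDC2, 52.2% to 53.0% in the other immature groups, and 85.3% and 83.3% in mature thymic cDC1 and cDC2. Klf2 and Klf4 made up most of the remainder, with Klf2 ahead of Klf4 in the 3 cDC1 groups and Klf4 ahead of Klf2 in the 3 cDC2 groups. Klf9 was the least abundant member in 5 groups and Klf10 was in mature thymic cDC1. The rarest transcript rested on 20 to 62 reads per sample (Klf9 in immature thymic cDC1) and the most abundant on 54882 to 144879 (Klf6 in mature thymic cDC1).

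**Figure D1:**
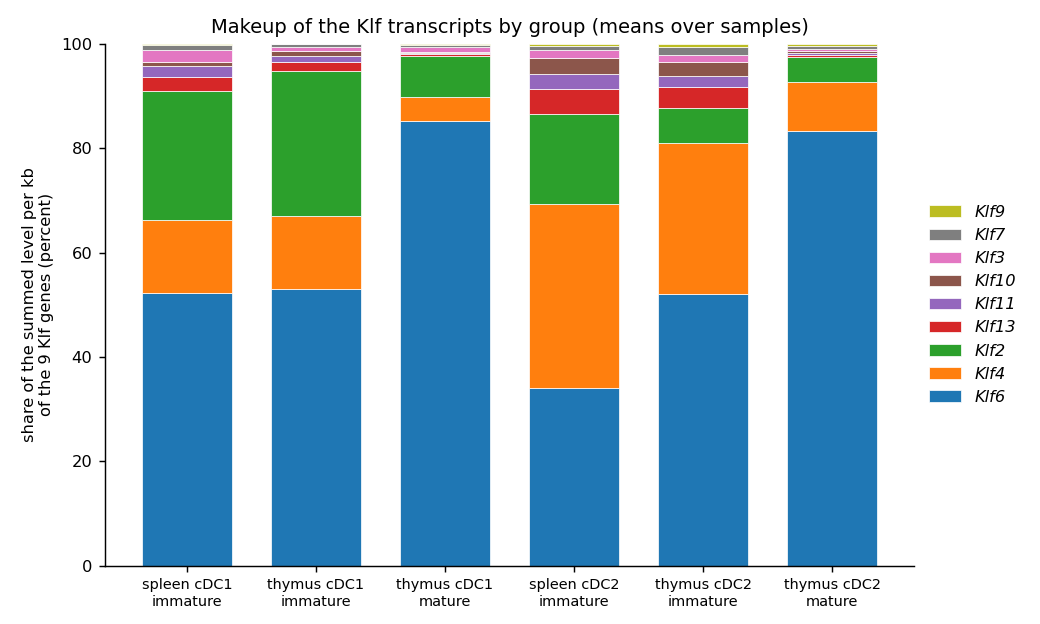
Share of each Klf gene in the summed mean level per kb of exon of the 9 genes (percent, vertical axis) in each of the 6 groups (bars, means over samples). Klf6 takes 85.3% and 83.3% in the mature thymic groups and 34.2% in splenic cDC2, where Klf4 takes 35.1%.

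**Figure D2:**
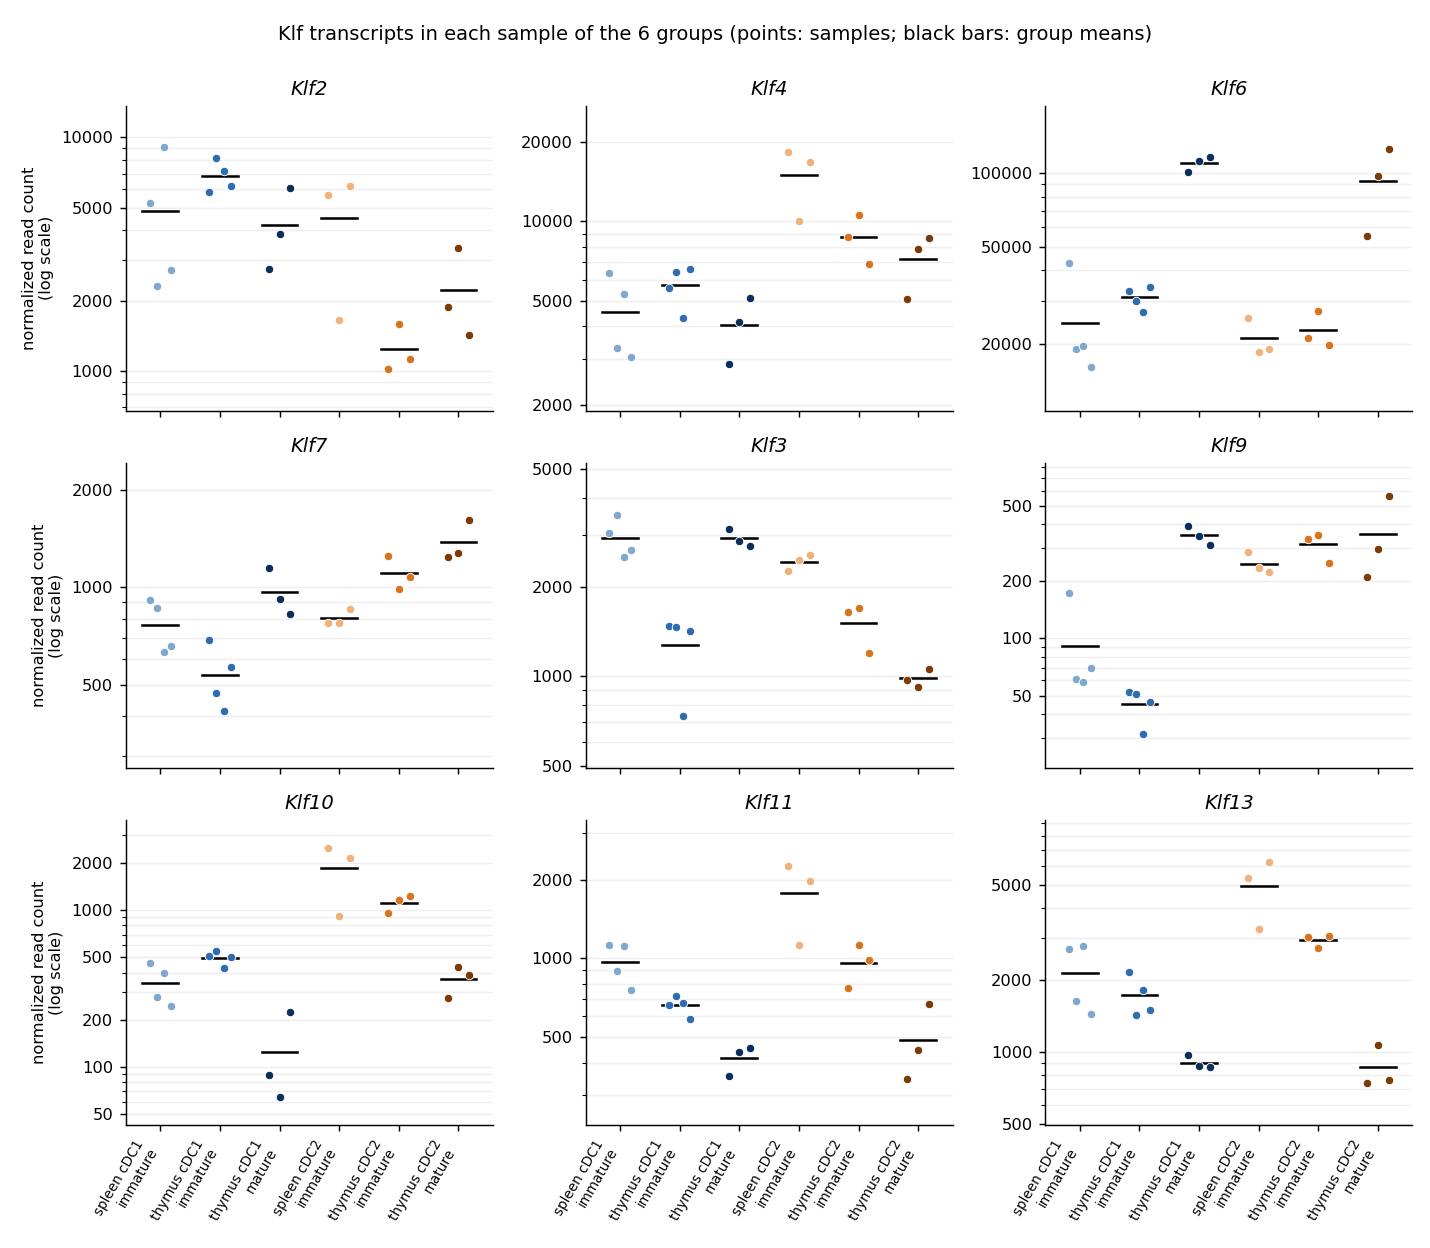
Normalized read count (log axis, 1 panel per gene with its own range) of the 9 Klf genes in each sample (points) of the 6 groups, with group means as black bars. Klf6 lies between 55256 and 124867 in the mature samples and between 16053 and 42712 in the immature ones, whereas Klf13 lies between 747 and 1077 in the mature and between 1425 and 6192 in the immature samples.

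Klf6 (chr13:5861482-5870394, mm10), an activator also known as a tumour suppressor, rose with maturation in both subsets. Its normalized read counts were 32927, 30061, 27049.7 and 34062 in immature and 101169, 112148 and 115838 in mature thymic cDC1. They were 21222, 27212 and 19865 in immature and 55256, 96748 and 124867 in mature thymic cDC2. Every mature sample was above every immature one, and the 3 mature cDC2 samples spread over a range of more than 2-fold. The change was 3.54-fold in cDC1, a log2 fold change of 1.83 (SE 0.29, adjusted p = 1.52e-05 by limma), and 3.87-fold in cDC2, a log2 fold change of 1.95 (SE 0.31, adjusted p = 2.46e-05 by limma). The difference between these changes was 0.13 on the log2 scale (95% interval -0.75 to 1.01). In the spleen, Klf6 was at 42712, 19166, 19579 and 16053 in cDC1 and at 25611, 18636 and 19049 in cDC2. Apart from splenic cDC1 replicate 1, at 42712, the splenic samples lay at or below 25611, and for Klf6 neither the tissue nor the subset comparisons passed the test (adjusted p between 0.328 and 0.863 over these 5 comparisons). In bulk samples, fewer cells that carry a transcript and less of it per cell cannot be told apart. With all 20 samples taken as points, which share their 6 groups, the genes most like Klf6 were Clic4 (r = 0.959), Rab8b (r = 0.958) and Rtn4 (r = 0.954), chosen from 10215 genes whose mean level was 100 or more. These correlations, and those of the other members given further on, are descriptions with no test.

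Klf2 (chr8:72319033-72321656), known for keeping lymphocytes quiescent and controlling their traffic, had its lowest mean in immature thymic cDC2. Its normalized read counts were 5833, 8201, 7184 and 6194 in immature thymic cDC1 and 1017, 1593 and 1125 in immature thymic cDC2. In the spleen they were 5253, 2309.8, 9082 and 2706 in cDC1 and 5698, 1654 and 6200.2 in cDC2. The 3 immature thymic cDC2 samples lay below all other immature samples, the nearest being splenic cDC2 replicate 2. Between the subsets in the immature thymus the level was 5.56-fold lower in cDC2, a log2 fold change of -2.47 (SE 0.45, adjusted p = 0.000296 by limma). Thymic cDC2 were also lower than splenic cDC2, 3.18-fold, with a log2 fold change of -1.67 (SE 0.48, adjusted p = 0.0176 by limma). In cDC1 the same comparison gave a log2 fold change of 0.71 (95% interval -0.16 to 1.58). The tissue effect in cDC2 thus differed from that in cDC1 by -2.38 (SE 0.64, adjusted p = 0.0332 by limma). These tissue calls rested on the splenic cDC2 samples. Without splenic cDC2 replicate 3 the change in cDC2 was -1.33 (adjusted p = 0.103) and the difference between subsets -2.04 (adjusted p = 0.12), and without replicate 1 the difference was -2.10 (adjusted p = 0.113). Without replicate 2 they were -2.28 and -2.99, and in lane 8 alone, which holds 1 splenic cDC2 sample, taken to vary like the other groups, the difference was -2.74 (adjusted p = 0.153), larger in size.

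The splenic libraries carry a leading number in their labels, whose meaning the labels do not state, and Klf2 followed it in part. The splenic samples of number 9 were at 9082 in cDC1 and 6200 in cDC2, those of number 4 at 2310 and 1654, and those of number 2 at 5253 and 2706 in cDC1 and 5698 in cDC2. The summed normalized read count of 28 immediate-early and stress genes, which can rise in cells handled outside the body, was 494944 and 774473 in the samples of number 9 and 333173 and 459409 in those of number 4. For number 2 the sums were 384260 and 322900 in cDC1 and 661039 in cDC2. Within splenic cDC2, number 9 was thus the highest and number 4 the lowest in both measures, and in splenic cDC1 number 9 was the highest in both, whereas the samples of number 2 differed between themselves. The part of these genes in the Klf2 result was not tested.

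In mature cells Klf2 was at 2726, 3879 and 6083 in cDC1 and at 1887, 3362 and 1427 in cDC2. The mature samples overlapped the immature ones in both subsets. The log2 fold change was -0.76 (adjusted p = 0.157 by limma) in cDC1 and 0.77 (adjusted p = 0.205) in cDC2. Without mature thymic cDC1 replicate 3, the highest of its group, the log2 fold change in cDC1 was -1.06 (adjusted p = 0.0806). In the spleen the subsets differed by -0.10 on the log2 scale (95% interval -1.04 to 0.84), and in mature cells by -0.94 (95% interval -1.95 to 0.07). The genes most like Klf2 over the 20 samples were Fxr2 (r = 0.870), 1810032O08Rik (r = 0.862) and Ccdc88b (r = 0.851).

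Klf4 (chr4:55527143-55532466), an activator and repressor of differentiation genes, had its highest mean in splenic cDC2. In the spleen the normalized read counts were 18316, 10036 and 16812 in cDC2 and 6387, 3309.8, 5306 and 3063 in cDC1. No splenic cDC1 sample reached the lowest cDC2 sample, and the level in cDC2 was 3.38-fold higher, a log2 fold change of 1.76 (SE 0.28, adjusted p = 6.57e-05 by limma). In the thymus Klf4 was at 5583, 6431, 4283 and 6584 in immature cDC1 and at 8751, 10576 and 6883 in immature cDC2. It was at 2865, 4140.2 and 5129 in mature cDC1 and at 5052, 7838 and 8645 in mature cDC2. Immature thymic cDC2 lay above immature thymic cDC1 in every sample and overlapped splenic cDC2, while the mature subsets overlapped each other. The log2 fold changes of cDC2 over cDC1 were 0.61 (adjusted p = 0.147) in immature and 0.83 (adjusted p = 0.0508) in mature cells, and neither passed both thresholds. The change between mature cells exceeded 2-fold without mature cDC2 replicate 1, at 1.07 (adjusted p = 0.0288), or without mature cDC1 replicate 3, at 1.02 (adjusted p = 0.0281). Neither maturation comparison passed the test for Klf4 (log2 fold changes of -0.52 and -0.30). Thymic cDC2 were lower than splenic cDC2 by less than 2-fold (log2 fold change -0.76, adjusted p = 0.0823), a change that was -1.03 (adjusted p = 0.0253) without splenic cDC2 replicate 2. The genes most like it were Atf3 (r = 0.898), Pim3 (r = 0.895) and Vegfa (r = 0.886), of which Atf3 belongs to the list of immediate-early genes.

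Klf7 (chr1:64029447-64122282), known as an activator in neurons and adipose tissue, had its lowest mean in immature thymic cDC1. The sample values were 687, 471, 415 and 569 in immature thymic cDC1 and 1253, 986 and 1076 in immature thymic cDC2. No sample overlapped, and the level was 2.09-fold higher in cDC2, a log2 fold change of 1.06 (SE 0.18, adjusted p = 0.000175 by limma). The value was just above 2-fold and was 0.95 without immature thymic cDC1 replicate 3 and 0.97 without immature thymic cDC2 replicate 1. Mature cells were at 1145, 924 and 829.9 in cDC1 and at 1241, 1281 and 1618 in cDC2. The level in mature cDC1 was 1.82-fold that in immature cDC1 (log2 fold change 0.86, SE 0.18, adjusted p = 0.000434 by limma), under the 2-fold limit, with no overlap between the groups. In cDC2 it was 0.32 on the log2 scale (adjusted p = 0.202). The spleen held 916, 863, 629.9 and 659 in cDC1 and 776, 775 and 859 in cDC2, which overlapped. The tissue effect differed between cDC2 and cDC1 by 0.98 on the log2 scale (adjusted p = 0.0322 by limma), just under 2-fold, where the change was -0.53 for cDC1 and 0.45 for cDC2. It was called in 7 of 32 repeats, with lane as covariate (1.005) and, at 1.02 to 1.11, without thymic cDC1 replicate 1 or 4, thymic cDC2 replicate 2, splenic cDC1 replicate 3 or 4, or splenic cDC2 replicate 3, all of them immature. Exons of Klf7 overlap those of Gm13748 and Gm26649 on the other strand, and the strand setting of the counting is not given in the sources used here. Nearest to Klf7 in its course over the samples were Clcn5 (r = 0.912), Slc39a14 (r = 0.904) and Lrrc8b (r = 0.868).

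Klf3 (chr5:64803388-64832901), the repressor that works with CtBP, responded to maturation in opposite directions in cDC1 and cDC2. In the thymus its sample values were 1485, 1467, 738 and 1423 in immature and 3149, 2873 and 2757 in mature thymic cDC1. They were 1644, 1707 and 1196 in immature and 969.6, 922 and 1061 in mature thymic cDC2. All mature cDC1 samples were above all immature ones, and all mature cDC2 samples were below all immature ones. The rise in cDC1 was 2.37-fold (log2 fold change 1.25, SE 0.20, adjusted p = 1.89e-05 by limma), and in cDC2 the log2 fold change was -0.61 (SE 0.21, adjusted p = 0.0244 by limma), less than 2-fold. The effect of maturation in cDC2 differed from that in cDC1 by -1.85 (SE 0.29, adjusted p = 0.000239 by limma). Mature cDC2 were accordingly 2.97-fold lower than mature cDC1 (log2 fold change -1.57, SE 0.21, adjusted p = 1.92e-05 by limma), whereas the immature thymic subsets differed by 0.28 on the log2 scale (95% interval -0.13 to 0.70).

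In the spleen Klf3 was at 3049, 3498, 2529 and 2669 in cDC1 and at 2269.6, 2467 and 2568 in cDC2. All immature thymic samples lay below these. Thymic cDC1 were 2.37-fold lower than splenic cDC1, with a log2 fold change of -1.24 (SE 0.19, adjusted p = 6.32e-05 by limma), and for thymic against splenic cDC2 it was -0.70 (adjusted p = 0.024), less than 2-fold. Immature thymic cDC1 replicate 3, at 738, was the lowest sample, and without it the change in cDC1 was -0.998 (adjusted p = 4.14e-05), just under the 2-fold limit. That library shares its leading number, index and lane with replicate 4 of the same group, from which it differed with a ratio of 100.5 on the same measure. The other pairs of the group gave 24.62 to 93.62, so the pair was kept apart. Mature thymic cDC1 were at the level of splenic cDC1, the 2 groups overlapping in range. Exons of Klf3 overlap those of Gm20033 on the other strand. The genes most like Klf3 were Polg2 (r = 0.834), Tinf2 (r = 0.83) and Rbbp6 (r = 0.820).

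Klf9 (chr19:23141226-23168134), a repressor known as a target of glucocorticoid and thyroid hormone receptors, separated immature cDC1 from all other groups. Sample values were 52.4, 50.8, 31.2 and 46.5 in immature and 391, 345 and 312 in mature thymic cDC1. They were 336, 352 and 251 in immature and 210.4, 295 and 560.4 in mature thymic cDC2. In the spleen they were 174, 61.1, 59.1 and 70.1 in cDC1 and 286, 235 and 223 in cDC2. All 8 immature cDC1 samples lay below all samples of the other 4 groups. With maturation the level in cDC1 rose 7.69-fold, a log2 fold change of 2.94 (SE 0.36, adjusted p = 5.22e-07 by limma), whereas in cDC2 the log2 fold change was 0.08 (95% interval -0.72 to 0.87). The effect of maturation in cDC2 differed from that in cDC1 by -2.87 (SE 0.52, adjusted p = 0.000966 by limma).

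Between subsets, Klf9 was higher in cDC2 by 6.85-fold among immature thymic cells, a log2 fold change of 2.78 (SE 0.36, adjusted p = 5.05e-06 by limma). In the spleen it was higher by 3.00-fold, a log2 fold change of 1.59 (SE 0.36, adjusted p = 0.00206 by limma). Mature cells differed by -0.09 on the log2 scale (95% interval -0.89 to 0.71), and there the sample values overlapped. The immature thymic cDC1 samples lay below those of splenic cDC1 without passing the test (log2 fold change -0.86, adjusted p = 0.106). The change was -1.001 (adjusted p = 0.0917) without splenic cDC1 replicate 2 and -1.02 (adjusted p = 0.0667) without replicate 3. Splenic cDC1 replicate 1, at 174, was the highest immature cDC1 sample. Klf9 rested on 20 to 62 reads per sample in immature thymic cDC1 and on 62 to 181 in splenic cDC1. The genes most like it were Malt1 (r = 0.964), Lrrc8b (r = 0.952) and Dapp1 (r = 0.949), so that Lrrc8b was among the nearest genes of both Klf9 and Klf7.

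Klf10 (chr15:38291463-38300706), an early target of transforming growth factor beta, fell with maturation in both subsets. Its normalized read counts were 513, 546, 426 and 503 in immature and 88.5, 64.1 and 224 in mature thymic cDC1. They were 958, 1168 and 1227 in immature and 277, 432 and 389 in mature thymic cDC2. The groups did not overlap in either subset, and mature cDC1 replicate 3 was the highest of its group. The fall was 4.53-fold in cDC1, a log2 fold change of -2.18 (SE 0.36, adjusted p = 2.67e-05 by limma), and 3.08-fold in cDC2, a log2 fold change of -1.62 (SE 0.38, adjusted p = 0.00156 by limma). In the spleen Klf10 was at 463, 279, 396 and 244 in cDC1 and at 2504, 915 and 2167 in cDC2. All 3 comparisons of cDC2 with cDC1 passed the test, with log2 fold changes of 2.35 (SE 0.36, adjusted p = 4.01e-05 by limma) in the spleen, 1.17 (SE 0.36, adjusted p = 0.0227 by limma) in the immature thymus and 1.72 (SE 0.38, adjusted p = 0.00259 by limma) in the mature thymus. The tissue comparisons did not (0.56 for cDC1 and -0.62 for cDC2). Splenic cDC2 replicate 2 was the lowest of its group, and without it the change in cDC2 was -1.07 (adjusted p = 0.0508). Closest to Klf10 came Fgr (r = 0.953), Lrp1 (r = 0.950) and Irf2bp2 (r = 0.939).

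Klf13 (chr7:63886351-63938915), known for its part in the late expression of the chemokine Ccl5 in T cells, was lower in mature than in immature cells. In thymic cells its sample values were 2157, 1425, 1816 and 1506 in immature and 973, 873 and 872 in mature thymic cDC1. They were 3025, 2734 and 3051 in immature and 747, 1077 and 768 in mature thymic cDC2. All 6 mature samples lay below all immature samples, and the mature groups overlapped each other. The fall was 3.44-fold in cDC2 (log2 fold change -1.78, SE 0.25, adjusted p = 6.76e-06 by limma) and 1.88-fold in cDC1 (log2 fold change -0.91, SE 0.24, adjusted p = 0.00236 by limma), the latter under the 2-fold limit. The difference of -0.87 between these effects did not pass the test (adjusted p = 0.105 by limma), and it was -1.04 (adjusted p = 0.0789) without mature cDC2 replicate 2. In the spleen Klf13 was at 2700.2, 1641, 2769.7 and 1441 in cDC1 and at 5333, 3281 and 6192 in cDC2. The splenic cDC2 samples were above the splenic cDC1 samples, by 2.32-fold (log2 fold change 1.22, SE 0.24, adjusted p = 0.0005 by limma). In the immature thymus the log2 fold change was 0.78 (adjusted p = 0.0193), less than 2-fold. The tissue change in cDC2 was -0.70 (adjusted p = 0.0548 by limma). In lane 8 alone it was -1.10, but that lane holds 1 splenic cDC2 sample, the highest of its group at 6192. Over the 20 samples, Klf13 was most like Elmsan1 (r = 0.971), Vps37b (r = 0.949) and Snx9 (r = 0.938).

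Klf11 (chr12:24651274-24662789), the second gene of the family induced by transforming growth factor beta, was also lower in mature cells. Its normalized read counts were 667, 719.6, 677 and 587 in immature and 354, 440.2 and 455 in mature thymic cDC1. They were 768, 1126 and 984 in immature and 347, 446 and 671 in mature thymic cDC2. Neither pair of groups overlapped, and both changes lay near or under the 2-fold limit. The log2 fold change was -1.01 (SE 0.25, adjusted p = 0.00258 by limma) in cDC2, and -0.67 (SE 0.24, adjusted p = 0.0197 by limma) in cDC1. The call in cDC2 depended on the threshold of 2-fold, since the value was -0.79 without mature cDC2 replicate 1, -0.89 without immature cDC2 replicate 2, -0.97 without mature cDC2 replicate 2, -0.98 without immature cDC2 replicate 3, -0.97 by DESeq2, -0.96 by edgeR, -0.98 with TMM scaling and -0.998 with a pseudocount of 8. In the spleen Klf11 was at 1121, 893, 1119 and 758 in cDC1 and at 2248, 1121 and 1981 in cDC2. The lowest splenic cDC2 sample, at 1121.46, was all but equal to the highest splenic cDC1 sample, at 1121.06. The log2 fold changes were 0.83 over splenic cDC1 (adjusted p = 0.0127) and -0.85 in thymic against splenic cDC2 (adjusted p = 0.0212), both less than 2-fold. Without splenic cDC2 replicate 2 these were 1.14 (adjusted p = 0.00103) and -1.15 (adjusted p = 0.00209). The genes most like Klf11 were Vps37b (r = 0.945), Fam71a (r = 0.922) and Elmsan1 (r = 0.918). Elmsan1 and Vps37b were thus among the nearest genes of both Klf11 and Klf13.

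Splenic cDC2 replicate 2 was the lowest of its group for 7 of the 9 genes, all but Klf3 and Klf9. For Klf7 the margin was small, at 775.3 against 776.0 in replicate 1, as for Klf6, at 18636 against 19049 in replicate 3. The summed immediate-early level of replicate 2 was also the lowest of the group. Junb, an AP-1 subunit, was at 10854 in that sample against 34151 and 47169 in the other splenic cDC2 samples. In splenic cDC1, Junb was at 29911 in replicate 3 and between 8191 and 10606 in the other 3, while Klf2 and Klf13 were highest in replicate 3, Klf3 in replicate 2 and the other 6 genes in replicate 1. The part of these genes in the splenic values was not tested. Over the 20 samples, Klf11 and Klf13 had a Pearson r of 0.911, Klf4 and Klf10 of 0.856, and Klf7 and Klf9 of 0.844. Klf6 and Klf13 had an r of -0.756, and Klf2 and Klf7 of -0.715. The samples behind these values share groups and libraries.

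Maturation was the comparison in which most genes changed. In thymic cDC1, 4 of the 9 Klf genes were called, where 45.7% of the 14970 genes tested were. Klf3, Klf6 and Klf9 rose (21.3% of all genes did) and Klf10 fell (24.5%). In thymic cDC2, 4 of 9 were called, against 35.6% of all genes. Klf6 rose (18.6% of all genes) and Klf10, Klf11 and Klf13 fell (17% of all genes), so that Klf6 and Klf10 were called in both subsets, in the same direction. The median log2 fold change of the 9 genes was -0.52 in cDC1 and -0.30 in cDC2, beside -0.04 and 0.04 over all genes. Both shares of members called are near those of all genes.

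**Figure D3:**
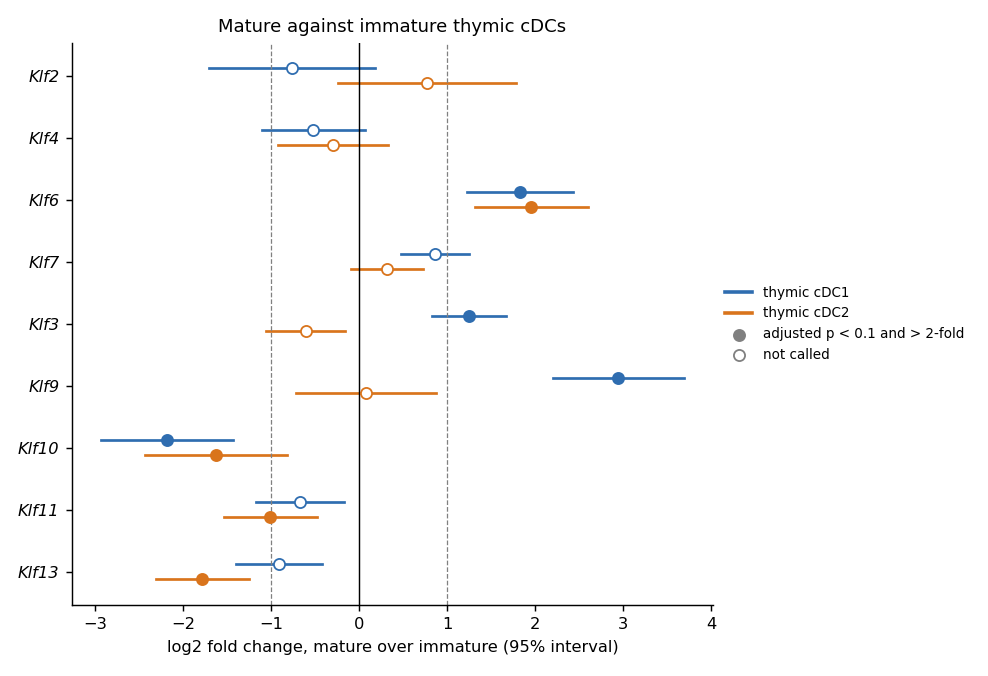
Log2 fold change of the 9 Klf genes in mature over immature thymic cDC1 (blue) and cDC2 (orange), with 95% intervals, and filled points where the gene was called. Klf6 is at 1.83 and 1.95, Klf10 at -2.18 and -1.62, and Klf3 and Klf9 lie on opposite sides or apart, at 1.25 and 2.94 in cDC1 against -0.61 and 0.08 in cDC2.

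The effect of maturation differed between the subsets for 2 of the 9 genes, Klf3 and Klf9, both with a lower value in cDC2, where 13.6% of all genes were called and 5.25% with a lower value. For Klf2 the difference was 1.53 (adjusted p = 0.139 by limma, 95% interval 0.15 to 2.91). It passed the test when only the 4 thymic groups were fitted (1.53 (adjusted p = 0.0281)), by DESeq2 (1.52 (adjusted p = 0.0799)), and without any 1 of mature thymic cDC1 replicate 3, mature thymic cDC2 replicate 3, splenic cDC2 replicate 2 or splenic cDC1 replicate 3. All genes together had a median of 0.11 in this comparison.

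Between tissues, 1 of the 9 genes was called in cDC1, Klf3, lower in the thymus, where 8.77% of all genes were called and 4.52% were lower. In cDC2 the single call was Klf2, also lower in the thymus, where 14.2% of all genes were called and 5.87% were lower. The medians of the 9 genes were -0.27 in cDC1 and -0.70 in cDC2, beside 0.00 and 0.02 over all genes. At the adjusted p alone, 5 of 9 passed in cDC2, namely Klf2, Klf3, Klf4, Klf11 and Klf13, all with lower values in the thymus, against 26.5% of all genes in either direction. In cDC1, Klf3 and Klf7 passed it, against 15.4% of all genes. The tissue effect differed between subsets for Klf2 alone among the 9, where 4.98% of all genes were called and 1.71% with a lower value. Klf4, at -1.15 (adjusted p = 0.125 by limma), was called in 8 of 32 repeats. Among these were DESeq2 on all 20 samples, at -1.13 (adjusted p = 0.0641), all 21 libraries, at -1.25, and 1 sample per leading number, at -1.23. In this comparison of the tissue effects 5 of the 28 immediate-early genes were lower and 0 higher (median -0.69), led by Fosb (-1.84) and Nr4a1 (-1.78), and their part in the Klf2 result was not tested. The call on Nr4a1 was lost without splenic cDC2 replicate 3 (-1.50 (adjusted p = 0.155)) or thymic cDC2 replicate 3 (-1.71 (adjusted p = 0.12)).

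**Figure D4:**
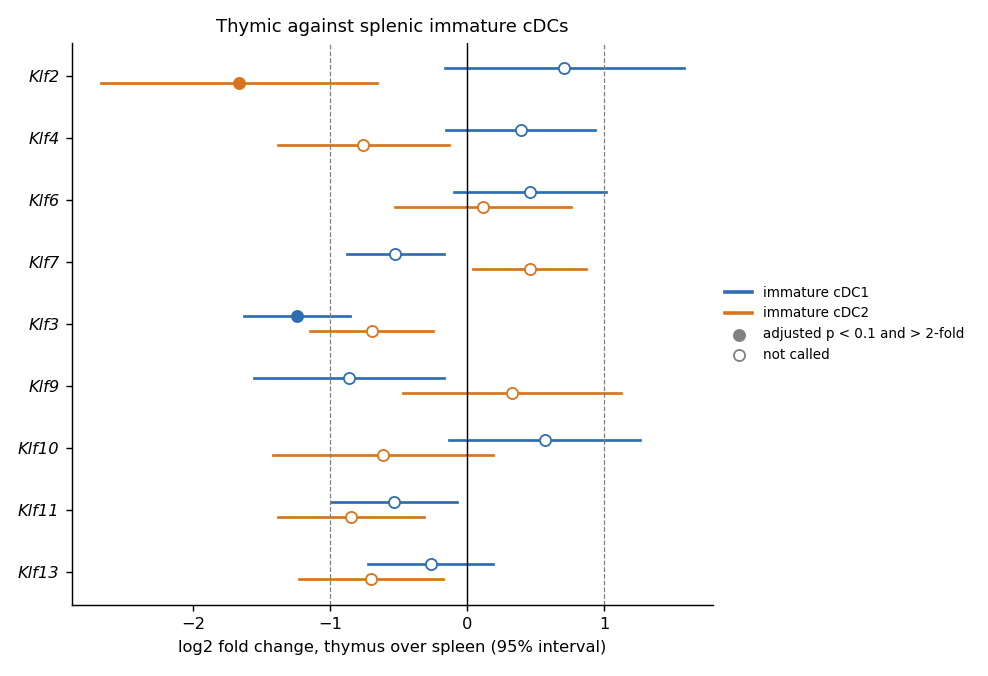
Log2 fold change of the 9 Klf genes in immature thymic over splenic cDC1 (blue) and cDC2 (orange), with 95% intervals, and filled points where the gene was called. Klf3 in cDC1, at -1.24, and Klf2 in cDC2, at -1.67, are called, while Klf2 in cDC1 lies at 0.71.

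Between subsets, cDC2 had the higher level for all 4 genes called in the spleen, Klf4, Klf9, Klf10 and Klf13, where 16.6% of all genes were called and 9.93% were higher in cDC2. The median of the 9 genes there was 0.83, beside 0.02 over all genes. In the immature thymus 4 of 9 were called, where 16.4% of all genes were, with Klf7, Klf9 and Klf10 higher in cDC2 (11% of all genes) and Klf2 lower (5.42%). In mature cells 2 of 9 were called, where 18.9% of all genes were, with Klf10 higher in cDC2 (14.6% of all genes) and Klf3 lower (4.36%), and the median of the 9 genes was -0.09 beside 0.14 over all genes. Klf10 was thus the gene called in all 3 comparisons. Immediate-early genes were higher in cDC2 in the spleen too, where 11 of the 28 rose and 0 fell (median 0.74), led by Gadd45b (3.01), Fosl2 (2.39), Socs3 (2.16) and Nfkbia (1.62). In the immature thymus 3 of these rose and 2 fell (median -0.12), and in mature cells 4 rose and 0 fell (median 0.07). Their part in the subset differences was not tested.

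**Figure D5:**
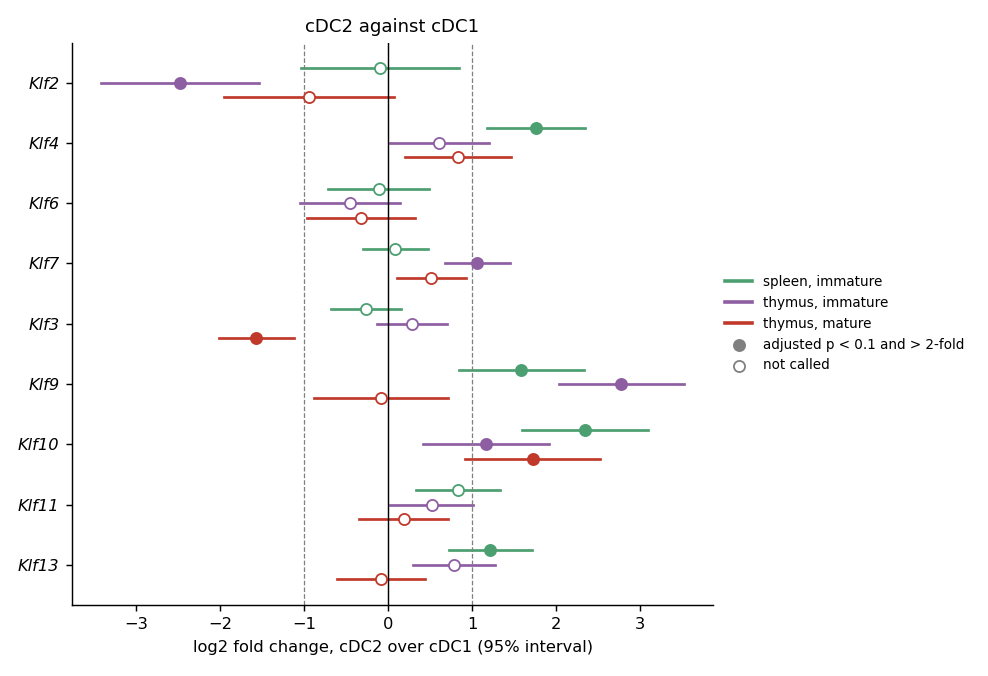
Log2 fold change of the 9 Klf genes in cDC2 over cDC1 in the spleen (green), the immature thymus (purple) and the mature thymus (red), with 95% intervals, and filled points where the gene was called. Klf10 is called in all 3, at 2.35, 1.17 and 1.72, and Klf2 is called in the immature thymus, at -2.47.

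Genes that work with these factors were followed in lists chosen for their roles. The medians and counts that follow can be read beside those of all genes in the same comparisons, given above or in the next sentences. Of the 14970 genes tested, 637 were called higher in thymic than in splenic cDC1, and 1242 in thymic than in splenic cDC2. Between subsets in the spleen, 1003 were called lower in cDC2. The effect of maturation in cDC2 against cDC1 was called higher for 1249. Between subsets in the immature thymus, the median log2 fold change of all genes was 0.01. Among the regulators known to act on Klf2, which include the Erk5 kinase cascade, the Mef2 factors and the Foxo factors, 1 of 9 rose and 1 fell with maturation in cDC1 (median -0.05), and 0 rose and 1 fell in cDC2 (median 0.12). The gene that fell in both was Mef2c, whose sample values were 459 to 829 in thymic cDC1 before and 1.73 to 17.6 after maturation, and 1067 to 1489 and 73.8 to 94.0 in cDC2, with no overlap. Its log2 fold changes were -6.96 and -3.94. Foxo1, which drives Klf2 in T cells, rose in mature cDC1 (1.07) and was lower in thymic than in splenic cDC1 (-2.12). In immature thymic cDC2 Foxo1 was higher than in immature thymic cDC1 (2.05). The tissue comparisons called 2 of 9 lower in each subset (medians -0.23 and -0.54), Mef2c (-1.50) and Foxo1 in cDC1 and Mef2c (-1.45) and Foxo3 (-1.20) in cDC2. Leaving out 1 sample ended the call on Foxo1 in mature cDC1 (0.93 without immature replicate 3 and 0.97 without mature replicate 2) and those between tissues in cDC2 on Foxo3 (-0.98 without splenic replicate 3) and Mef2c (-1.30 (adjusted p = 0.127) without thymic replicate 3).

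Of 9 genes known as targets of Klf2 in lymphocytes, endothelium or phagocytes, 1 rose and 7 fell with maturation in cDC1 (median -3.32), where 21.3% of all genes rose and 24.5% fell. In cDC2 2 rose and 7 fell (median -2.48), where 18.6% of all genes rose and 17% fell. The integrin genes Itgal and Itgb7 fell in cDC1 (-6.23 and -5.10 on the log2 scale) and in cDC2 (-2.42 and -3.83). Klf2 itself passed in neither. In the immature thymus 0 of the 9 were higher in cDC2 and 2 were lower (median 0.50), Itgal (-2.30) and Cxcr3, at 436 to 752 in cDC1 and 9.61 to 22.1 in cDC2. In mature cells 5 of the 9 were higher in cDC2 and 1 was lower (median 1.20), and in the spleen 1 was higher and 3 were lower (median -0.33). The effect of maturation in cDC2 against cDC1 was higher for 5 and lower for 0 (median 1.27). Between tissues the list had 1 higher and 1 lower in cDC2, the latter being Itgal (-2.35). The part of Klf2 in the values of these genes was not tested.

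Of 14 genes tested of the transforming growth factor beta pathway, upstream of Klf10 and Klf11, 4 rose and 2 fell with maturation in cDC1 (median 0.25) and 1 rose and 3 fell in cDC2 (median -0.05). The ligand gene Tgfb1 fell in both (-2.58 and -2.19 on the log2 scale), as did the receptor gene Tgfbr2 (-3.35 and -1.81). Smad3, which carries the signal to the nucleus, and Tgif2, a corepressor that binds Smad proteins, rose in mature cDC1 (3.21 and 1.80). Between subsets, 3 rose and 0 fell in the spleen (median 0.64) and 5 rose and 0 fell in the immature thymus (median 0.73), among them the receptor gene Tgfbr1 (1.57). In thymic against splenic cells, 0 rose and 2 fell in cDC1 and 2 rose and 3 fell in cDC2, and Smad3 was lower in both (-2.97 and -1.29). The part of this pathway in the Klf10 and Klf11 values was not tested.

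Of 13 genes of corepressors and coactivators, 1 rose and 2 fell in mature cDC1 (median 0.05) and 0 rose and 1 fell in mature cDC2 (median 0.10). Sap30, a subunit of the Sin3a complex, fell in both (-2.05 and -2.12), and in cDC1 Ctbp2, the partner of Klf3, fell (-1.09) while Sin3a rose (1.06). Of 8 genes of ubiquitin ligases that act on KLF proteins, 2 rose and 0 fell with maturation in each subset (medians 0.41 and 0.17), Smurf1, which the pathway list above also holds, among them (1.61 and 1.32), and 0 rose and 2 fell between spleen and thymus in each subset (medians -0.16 and -0.21), Itch among them (-1.08 and -1.27). Calls in cDC1 were lost on Ctbp2 without mature replicate 1 (-0.83), on Sin3a without immature replicate 4 (0.97), and on Itch between tissues without splenic replicate 1 (-0.99) or thymic replicate 3 (-0.90).

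Of the 8 other Klf genes in the files, 4 were abundant enough to be tested, Klf5, Klf8, Klf12 and Klf16. With maturation 2 rose and 0 fell in cDC1, namely Klf5 and Klf12, named here after their values were seen, and 1 rose and 0 fell in cDC2, Klf8 (1.26). Klf5 was at 22.2 to 41.6 in immature and 81.1 to 196 in mature thymic cDC1. Klf12 was at 0 to 28.3 and 13.9 to 95.9 (log2 fold change 1.67, adjusted p = 0.0824 by limma), where 1 of the 3 mature samples lay above the immature samples and the groups overlapped. The call on Klf12 was lost in 7 of 32 repeats, at 0.78 without mature cDC1 replicate 1 and 0.62 without immature cDC1 replicate 3. Klf8 was also higher in thymic than in splenic cDC2 (1.04), but under 2-fold without splenic cDC2 replicate 1 (0.89) or thymic cDC2 replicate 2 (0.98). Of the related Sp genes 5 of 9 were tested. Sp4 rose in mature cDC1 (2.15) and cDC2 (1.58), and 1 and 2 of the 5 rose and 0 fell in these comparisons. Of the 28 immediate-early genes, 3 rose and 8 fell in mature cDC1 (median -0.74) and 4 rose and 10 fell in mature cDC2 (median -0.18). Egr3 fell in both (-5.44 and -4.31 on the log2 scale), in the same comparisons in which Gadd45b rose (5.27 and 3.10). In thymic against splenic cells, 2 rose and 1 fell in cDC1 (median 0.24) and 2 rose and 4 fell in cDC2 (median -0.48), where Ier3 (4.05) and Socs3 (2.91) were higher and Nr4a1 (-2.25) and Fosb (-1.61) lower.

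Markers of other cell types moved with some comparisons. Of 12 T cell and thymocyte markers tested, 12 rose with maturation in each subset, and the sum of all 14 was 315 to 469 in immature and 11937 to 12869.5 in mature thymic cDC1. In cDC2 it was 431 to 695 and 13140.0 to 13741. Most of that sum was Tcf7, at 9285 to 10919 and 11323 to 12698 in the mature groups, whereas Rag1 was at 166 to 345 and 150.5 to 219 and Cd3e at 24.3 to 86.6 and 29.9 to 79.3. Of 8 macrophage markers tested, 6 were higher in cDC2 in the spleen and 6 in the immature thymus, with sums of 1947 to 2410.0 against 475 to 871 and 5731 to 9572 against 874 to 1200.0, and 7 in mature cells, where the sums overlapped (5231 to 18506 against 5856 to 8467). Of 6 monocyte markers, 2 rose and 3 fell with maturation in cDC1 and 0 rose and 3 fell in cDC2, with sums of 1443 to 2541 before and 199 to 345 after in cDC1 and of 11667 to 14378 and 640.5 to 1649 in cDC2. Of 3 endothelial and stromal markers tested, 2 fell with maturation in cDC1 and 3 in cDC2, and 2 were higher in immature thymic cDC2 than cDC1. The sum of all 5 was 290.2 to 398 in immature and 20.3 to 121 in mature thymic cDC1, 2479.8 to 2709 and 63.6 to 131 in thymic cDC2, and 1547 to 1979.8 in the spleen. Most of it was Pecam1, at 2444 to 2679 in immature thymic cDC2, while Cdh5 was at 20.3 to 37.5 and Col1a1 at 0 there. The 5 NK cell markers summed to 114 to 186 in splenic cDC2, mostly Gzma, against 0.924 to 2.06 in splenic cDC1 and at most 9.09 in the thymic groups. Between tissues in immature cells, 10 of 12 T cell markers were higher in thymic cDC1 and 7 in thymic cDC2, and 4 of 6 monocyte markers were higher in thymic cDC2, with a sum of 11667 to 14378 against 2516 to 3536 in splenic cDC2. Of 5 thymic epithelial markers, 4 were higher in thymic cDC1 and 5 in thymic cDC2, with sums of 575 to 705 and 3487 to 3816 against 40.4 to 76.2 and 84.7 to 152, mostly Epcam, while Foxn1 was at 4.67 to 6.03 in thymic cDC2. Of 4 B cell markers tested, 4 were lower in thymic cDC1 and 3 in thymic cDC2, with sums of 106 to 139.9 and 196 to 262 against 598 to 1004 and 738 to 780.3. The 6 plasmacytoid markers summed to 7126 to 8052 in immature thymic cDC2 and to 1292 to 3422 in the other groups. The T cell gene Rag2 was at 0 in every splenic sample, as were Themis, Dntt and Bcl11b in splenic cDC1. The sum of 6 neutrophil markers did not exceed 50.3 in any sample and that of 5 erythroid markers 70.2. The part of such cells in the Klf values was not tested.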

How the data were processed

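Poly(A) RNA of 21 libraries of sorted dendritic cells was sequenced from a stranded library kit. For alignment to mm10 the authors used STAR (version 2.6) after Cutadapt trimming, then counted reads per gene with HTSeq-count and scaled them with DESeq2 (version 1.24.0, from the submitters' processing notes). The strand setting and the annotation release are not given in the sources used here. The deposited signal is a normalized read count, the number of reads divided by 1 size factor per library, and 100% of the values came out as whole reads within 0.01 reads. Replicates 4 and 5 of splenic cDC1 were averaged.

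The 14970 genes that reached a value of 10 in 3 or more samples entered limma 3.58.1 (R 4.3.3) on log2(value + 1), a scale that understates changes of low genes. The fit held the 6 group means of 20 samples with a mean-variance trend. A gene was called at a Benjamini-Hochberg adjusted p below 0.1 over all genes and more than 2-fold. That script was tested on simulated data. The samples, from pooled animals, are taken as the replicates, so p-values measure the spread between samples. That each came from a separate pool is not stated. Alternatives were edgeR 4.0.16 and DESeq2 1.42.0 on the recovered reads, TMM scaling, pseudocounts of 0.1 and 8, other sample sets, lane and leading number, and leaving out each sample. Gene positions and lengths come from GENCODE M21 (GRCm38).

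The members and lists were chosen with earlier results of these data known. Text names the 9 members, the 3 genes most correlated with each, and, per list and comparison, at most 4 called genes of the largest change with a mean of at least 100, beside Klf5 and Klf12, chosen after their values were seen. Results for 1 gene of the lists are not reported here.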

Additional observations from a re-analysis of the deposited data

Results flagged for a closer look

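In 3 cases a single sample of a group of 4 stood far from the others by Dixon's ratio, which by chance does so in about 1 of 20 groups. The ratio was taken for each of the 9 genes in immature splenic and thymic cDC1, the only groups of 4. Klf3 was at 738 in immature thymic cDC1 replicate 3, below 1423 to 1485 in the other 3 samples. In splenic cDC1 replicate 1, Klf6 was at 42712, above 16053 to 19579, and Klf9 was at 174, above 59.1 to 70.1.

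In 3 cases the same contrast differed between the subsets by limma's test of the interaction. The effect of maturation on Klf3 differed by -1.85 and that on Klf9 by -2.87 in cDC2 against cDC1 on the log2 scale, and the effect of tissue on Klf2 by -2.38.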

How the results depend on the processing

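The 9 comparisons were repeated in 12 other settings and in 20 runs that left out 1 sample each. Of the 23 calls on members, 721 of 736 repeats kept the call and 15 lost it, with the direction kept in all. Of the 115 calls on list genes, 3571 of 3680 repeats kept the call and 109 lost it. Of the 58 member results not called, 35 of 1856 repeats gained a call and 19 changed sign. The sign changed in these: for Klf2 between splenic subsets with all 21 libraries (0.025) and in lane 8 alone (0.32), for Klf6 there in lane 8 alone (0.10), and for Klf9 between mature subsets by edgeR (0.041) and DESeq2 (0.0051). Leaving out 1 sample, the values ranged from -0.31 to 0.39 for Klf9 with maturation in cDC2, from -0.024 to 0.26 for Klf6 between tissues in cDC2, from -0.44 to 0.52, -0.27 to 0.20 and -0.0038 to 0.18 for Klf2, Klf6 and Klf7 between splenic subsets, from -0.58 to 0.0049, -0.48 to 0.23, -0.073 to 0.40 and -0.26 to 0.0075 for Klf6, Klf9, Klf11 and Klf13 between mature subsets, and from -0.0070 to 0.46 and -0.13 to 0.46 for Klf4 and Klf6 in the difference of maturation effects. The causes were not tested.

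Counts of all genes called that moved over 1.5-fold were those in lane 8 alone, which holds fewer samples, with 817 (against 1313) for tissue in cDC1, 1631 (2489) for subset in the spleen, 1199 (2035) for the difference of maturation effects and 208 (746) for that of tissue effects, and that with only the groups compared, 1704 (2834), for mature subsets. Members called moved from 1 to 2 for tissue in cDC2 in lane 8. For the difference of tissue effects they moved from 1 to 2 by DESeq2, with all 21 libraries, with 1 sample per leading number, with lane as covariate and with the replicate block, and to 0 in lane 8 by limma, with 3 at an unadjusted p below 0.05. Leaving out 1 sample, members called ranged from 0 to 3 for tissue in cDC1, from 0 to 4 for tissue in cDC2 and from 0 to 3 for the difference of tissue effects, where the runs with 0 had 3, 4 and 4 at an unadjusted p below 0.05. For maturation in cDC1, edgeR called 6732 and DESeq2 6781 genes, against 6848.

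Same-numbered samples had correlations of -0.15 to 0.461 in their deviations from the group means, and not every sample was nearest to its own number. Deviations from the means of so few samples cannot tell what such samples share beyond the number. With the number as a replicate block (consensus correlation 0.155), 6897 genes were called for maturation in cDC1 and 5353 in cDC2 (5329 without it). It changed 1 member call of 81, Klf4 in the difference of tissue effects (-1.18, adjusted p = 0.0616), and 2 of the 115 calls followed on list genes. TMM scaling moved no level beyond 1 SD and ended 1 member call, Klf11 with maturation in cDC2 (-0.98). Klf9 in immature thymic cDC1 rests on the fewest reads, which limits the precision of its fold changes.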
